A study of Mus musculus with 4 samples.

Results

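The motile cilia genes of airway ciliated cells were followed as a set of 40 genes, found by gene symbol among the 56748 genes of a count table from mouse lungs that carried triple-negative breast cancer (TNBC) metastases. The set was written from the known parts of the motile cilium: axonemal dyneins, radial spoke and central apparatus proteins, other cilia and flagella proteins, and regulators of multiciliation. It was proposed with the counts of both groups of these libraries in view, so the difference between the groups is given below as a description, without a test for the members. All 40 symbols were found, each on 1 row of the table.

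Bulk RNA sequencing was available for 2 saline and 2 ADC/cmLumiOpto samples, whereas the study's methods give 4 samples per group. Female BALB/cJ mice, 7 weeks of age when injected, were given 4T1-FLuc cells by tail vein injection, so mice of both groups carried tumor of this line and had an intact immune system. The 4T1-FLuc line is a mouse TNBC line that carries luciferase. The treated mice received CD276-DM1, an antibody-drug conjugate (ADC) that joins an antibody against CD276 to the microtubule inhibitor mertansine, together with cmLumiOpto, a gene therapy that depolarizes the mitochondria of cancer cells. Because the ADC and cmLumiOpto were given together, their parts cannot be told apart here. The labels and the methods differ in several points. The titles in the labels name saline and cmLumi with an ADC dose of 16 mg/kg. Elsewhere the labels write cmLumi-Olap and PBS and describe harvested tumour cells. The methods give 8 mg/kg, saline and dissociated lung tissue. They do not use the term Olap, and whether it names a further drug cannot be told here. The groups are called saline and treated below, with libraries numbered as in the labels.

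Motile cilia are hair-like projections that beat on multiciliated cells of the airway lining and move mucus toward the throat. Each contains an axoneme, a ring of doublet microtubules around a central pair, in which dynein arms on the doublets slide them against each other while radial spokes, the central apparatus and the nexin-dynein regulatory complex shape the beat. Multicilin (Mcidas) and cyclin O (Ccno) act early in the differentiation of these cells and in the multiplication of their basal bodies, and the forkhead factor FOXJ1 acts with RFX factors to switch on the genes of the axoneme.

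The promoters of these genes are of interest because RFX factors bind motifs that are common near the start of cilium genes. In the RefSeq windows of mouse assembly GRCm38.p6, which run from 250 bases before to 50 bases after each annotated start, 34 of the 40 members had at least 1 promoter. There was no entry for Foxj1, Dnah3, Rsph1, Rsph4a, Cfap54 and Tppp3. The core letters of an RFX motif, GTTGCC, searched on both strands, were found in 19 of the 34 members. The windows below are the 130 bases before the start of 8 members that hold these letters there. They are shown because they include members with large differences in counts (Dynlrb2, Sntn, Lrrc23 and Cfap44) and 4 further members from other parts of the axoneme, and they were chosen after the counts were seen. Each is written 5′ to 3′ on the strand of the gene, and capitals mark GTTGCC or its reverse complement GGCAAC.
Dynlrb2 (chr8:116504885-116505014, plus strand): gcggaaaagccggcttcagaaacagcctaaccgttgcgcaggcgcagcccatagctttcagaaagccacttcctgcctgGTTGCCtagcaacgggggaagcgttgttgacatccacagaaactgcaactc
Sntn (chr14:13670746-13670875, plus strand): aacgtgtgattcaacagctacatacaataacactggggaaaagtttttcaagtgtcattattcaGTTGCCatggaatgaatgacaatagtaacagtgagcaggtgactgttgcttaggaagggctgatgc
Lrrc23 (chr6:124779728-124779857, minus strand): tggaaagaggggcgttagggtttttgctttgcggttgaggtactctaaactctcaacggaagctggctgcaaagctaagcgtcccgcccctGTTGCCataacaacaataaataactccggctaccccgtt
Tekt1 (chr11:72361883-72362012, minus strand): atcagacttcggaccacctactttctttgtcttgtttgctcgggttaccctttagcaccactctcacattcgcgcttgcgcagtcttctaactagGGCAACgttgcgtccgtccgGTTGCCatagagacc
Cfap44 (chr16:44394669-44394798, plus strand): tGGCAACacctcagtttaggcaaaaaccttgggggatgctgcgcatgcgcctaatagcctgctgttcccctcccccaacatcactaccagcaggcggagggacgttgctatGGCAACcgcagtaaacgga
Spag16 (chr1:69826840-69826969, plus strand): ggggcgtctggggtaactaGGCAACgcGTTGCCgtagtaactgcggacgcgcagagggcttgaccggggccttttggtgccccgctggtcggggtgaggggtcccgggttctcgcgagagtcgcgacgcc
Hydin (chr8:110266847-110266976, plus strand): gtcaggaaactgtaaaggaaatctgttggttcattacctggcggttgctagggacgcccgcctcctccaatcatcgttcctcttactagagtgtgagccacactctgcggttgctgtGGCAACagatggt
Drc1 (chr5:30281263-30281392, plus strand): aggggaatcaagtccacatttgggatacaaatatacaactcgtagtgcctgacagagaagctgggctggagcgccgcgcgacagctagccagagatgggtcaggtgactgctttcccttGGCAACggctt

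The letters lay close to the start in several of these windows. The nearest match began 51 bases before the start in Dynlrb2, 39 in Lrrc23, 66 in Sntn, 19 in Cfap44, 13 in Hydin and 11 in Drc1. Tekt1 held a pair of matches, which began 35 and 15 bases before the start, and so did Spag16, at 111 and 103 bases. Over the promoters of all members there were 24 matches, of which 12 (50%) lay within the 100 bases before the start, compared with 37.5% of the 4500 matches in all promoters.

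GTTGCC was present in 55.9% of the members with a promoter and in 14.1% of the 27025 genes with a promoter in the table. It was found in 41 of 85 other genes of motile cilia (48.2%) and in 17 of 35 genes of intraflagellar transport and the BBSome (48.6%), which also serve non-motile cilia. Of the club cell markers with a promoter, 0 of 8 held it, and 8 genes are too few to tell this from 14.1%. Scgb1a1, Scgb3a2, Muc5b and Hp had no promoter entry. A longer RFX motif, written as GTNNCC and GGNAAC with 2 free bases between them, was present in 4 of the 34 members (Ccno, Spag6l, Tekt4 and Zmynd10; 11.8%) and in 1.49% of all genes. The forkhead letters TGTTTAC were found in 2 members, Sntn and Ak7 (5.88%), compared with 4.05% of all genes. CCAAT, the letters bound by NF-Y, was present in 38.2% of the members, 65.7% of the transport genes and 41.1% of all genes. The longer motif need not contain GTTGCC, and a window can hold both. Windows of the members had a GC content of 54.8% and those of all genes 53.8%. These matches describe letters in a fixed window and do not show that a factor was bound.

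**Figure D1:**
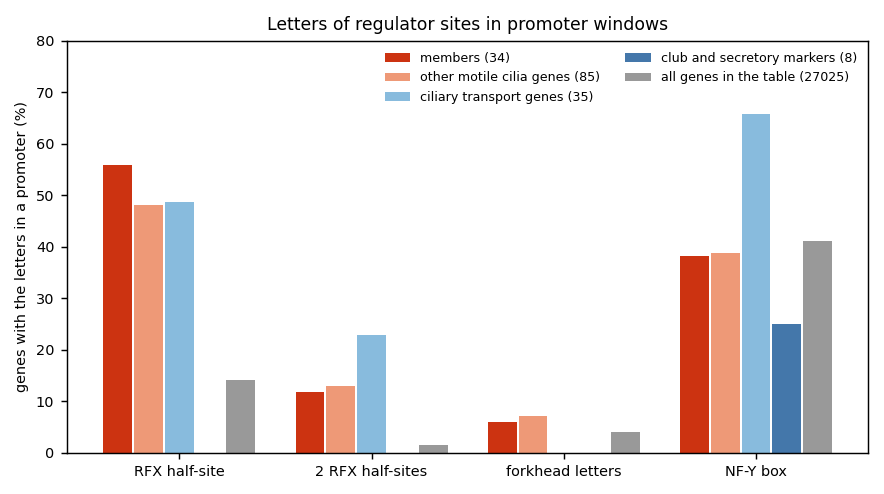
Share of genes (%, y axis) whose RefSeq promoter window holds each of 4 motifs, for the members, the other motile cilia genes, the ciliary transport genes, the club cell markers and all genes. The RFX core letters were present in 55.9% of the members and 14.1% of all genes, whereas the forkhead letters differed little between them (5.88% and 4.05%).

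Total counts were between 15263375 and 19675436 per library, and 3 counts, taken as the floor of detection, corresponded to a level of 0.146 to 0.202 CPM, the count per 1000000 counts of a library after scaling by the TMM factors of edgeR. Libraries of the same group differed from each other. Saline 2 held fewer counts of lung epithelial genes than saline 1: summed markers of club and other airway secretory cells were 1487 CPM in saline 1 and 176.8 CPM in saline 2. Treated 2 stood apart in the sum of 14 leukocyte markers, at 7343 CPM, compared with 594.1 to 1341 CPM in the other libraries. Without S100a8 and S100a9 this sum was 247.7 CPM in saline 1, 213.5 in saline 2, 356.5 in treated 1 and 439.1 in treated 2. The labels call the samples 4T1 cells, and markers of 4T1 and other simple epithelium were high in every library (7996 to 12060 CPM), yet Sftpc, the surfactant protein of alveolar type 2 cells, was counted in every library as well, at 174 to 4321 CPM. Without Spp1, which macrophages also express, the sums of the 4T1 list were 3096 to 3606 CPM. This list is not specific to the tumor. Markers of alveolar cells and of 4T1 and other simple epithelium were thus present in the same libraries.

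Counts of the members were few in every library and higher in both treated libraries. The 40 members together received 469 counts in saline 1, 242 in saline 2, 1936 in treated 1 and 1590 in treated 2, which is 29.1, 15.8, 108.4 and 80.8 when scaled to CPM by the deposited totals alone. The median member had 6, 2, 25 and 23.5 counts in these libraries. Every member had at least 1 count in both treated libraries (Mcidas had 2 in each, under the floor), while 4 members were at 0 in saline 1 and 13 in saline 2. On the TMM scale the summed level was 22.8 ± 9.20 CPM in saline and 93.6 ± 22.8 CPM after treatment (SD, n = 2 each), a ratio of 4.10. Treated 1 was above treated 2, and saline 1 above saline 2, and the groups did not overlap. Leaving out 1 library at a time gave ratios between 3.19 and 5.74. In bulk tissue, fewer ciliated cells and less of these RNAs per cell cannot be told apart.

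Tppp3 held much of this sum. Its product binds microtubules and is abundant in ciliated cells, although the gene is also used by other cell types. It made up 20% and 24.4% of the member counts in the saline libraries and 37.9% and 31.4% in the treated libraries. Without Tppp3 the other 39 members summed to 375, 183, 1202 and 1091 counts, and the ratio was 3.39. Apart from Tppp3, the highest count of any member in a library was 146, for Foxj1 in treated 2.

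**Figure D2:**
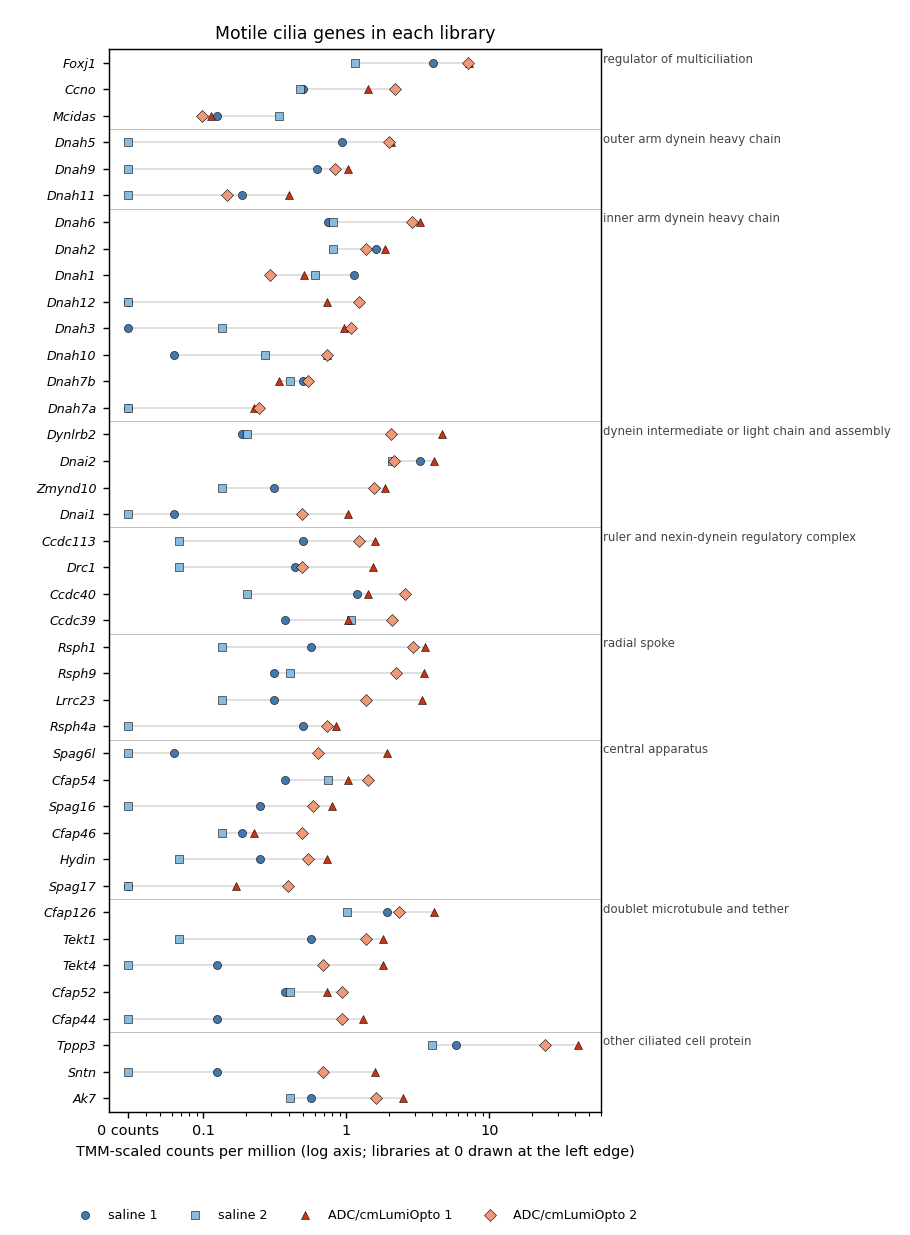
TMM-scaled CPM (x axis, log scale) of each of the 40 members in the 2 saline and the 2 treated libraries, grouped by role in the cilium, with values of 0 drawn at the left edge. The treated points lie to the right of the saline points for 33 members. Dnah1 and Mcidas show the opposite order, Mcidas with only 2 to 5 counts in a library.

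The order of the 4 libraries was the same for most members. For 33 of 40, both treated values lay above both saline values, compared with 23.2% of the 25563 genes that had any count. For 2 members, Mcidas and Dnah1, both treated values lay below both saline values, which was so for 20.7% of genes. The groups overlapped for the other 5 (Dnah2, Dnah7b, Dnah11, Dnai2 and Ccdc39). Mcidas had the same raw count of 2 in saline 1 and both treated libraries, so its order there came from the scaling for depth. Since the members were proposed from the same libraries, these counts are not independent of the choice. Within groups, saline 1 was above saline 2 for 28 members and treated 1 above treated 2 for 29.

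The ratio of each member was taken from the counts of the 2 libraries of a group added together and divided by their scaled depth, with an exact (Clopper-Pearson) 95% interval that covers counting error only. Over the 40 members the median ratio was 3.91, with the 3 members at 0 in both saline libraries set to their ratio against a floor of 3 saline counts. The ratio was at least 2 for 35 members, between 1 and 2 for Dnah2 and Dnai2, and under 1 for Dnah1, Mcidas and Dnah7b. Leaving out saline 1 or treated 1 turned the order of the group means for Dnah7b, leaving out saline 2 did so for Dnah2 and Dnai2, and leaving out treated 1 for Dnai2.

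**Figure D3:**
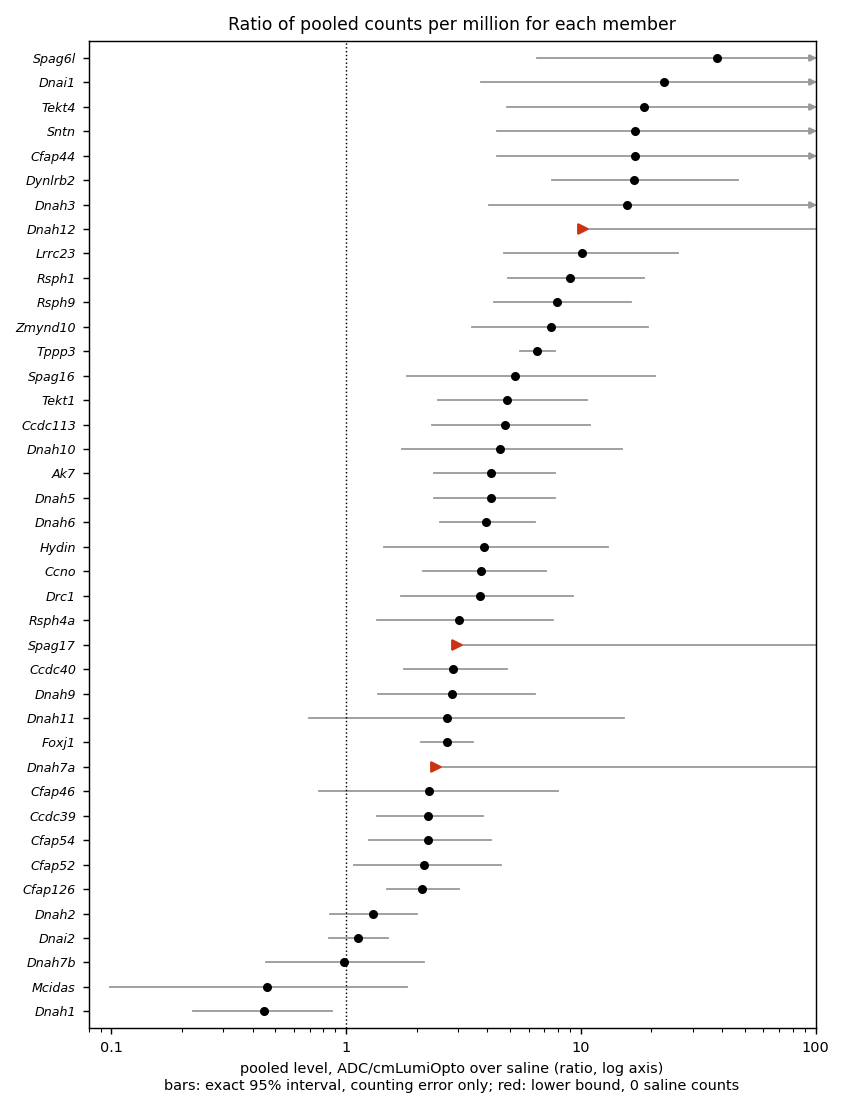
Ratio of treated to saline counts per scaled depth (x axis, log scale) for each member, with exact 95% intervals for counting error, and arrows where an interval runs past the axis. Red arrowheads mark the ratio against a floor of 3 saline counts for Dnah12, Dnah7a and Spag17, which were at 0 in both saline libraries. Their exact intervals begin lower, at 7.93, 1.6 and 2.03, and that part is not drawn. 35 members lie at a ratio of 2 or more and 3 lie under 1.

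The regulators did not share 1 order. Foxj1, on chromosome 11, had 65 and 17 counts in the saline libraries and 127 and 146 in the treated libraries. Ccno, on chromosome 13, had 8 and 7 counts, compared with 25 and 45. Mcidas, which lies on the same chromosome as Ccno, had 2 and 5 counts in saline and 2 in each treated library. Thus Foxj1 and Ccno were higher in both treated libraries, at ratios of 2.69 (2.1 to 3.49) and 3.77 (2.14 to 7.09), while Mcidas had a ratio of 0.462 with an interval from 0.0991 to 1.82. The few counts of Mcidas left no difference detectable at this depth. The saline values of Foxj1 differed from each other by more than the treated values did, and its log2 fold change of 1.45 (SE 0.576) was 2.62 without saline 1 and 0.82 without saline 2.

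The heavy chains of the outer dynein arms, the motors that set the beat frequency, were not detected in saline 2. Dnah5 had 15, 0, 36 and 41 counts in saline 1, saline 2, treated 1 and treated 2. Dnah9, the heavy chain of the outer part of airway cilia, had 10, 0, 18 and 17 counts in the same order. Dnah11, a partner of these chains near the base of the cilium, had 3, 0, 7 and 3. The first 2 were above saline 1 in both treated libraries, with ratios of 4.15 (2.37 to 7.77) and 2.83 (1.37 to 6.41), and Dnah11 overlapped with saline 1, at a ratio of 2.69 (0.694 to 15.2). A count of 0 in saline 2 allows a level of up to 0.202 CPM. The 3 genes summed to 28 counts in saline 1 and to 61 in each treated library.

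The 8 inner arm heavy chains, which shape the bend of the cilium, had the smallest summed ratio of the role groups, at 2.40, and held both directions. Dnah6 had 12 counts in each saline library and 58 and 59 after treatment, a ratio of 3.94 (2.52 to 6.39). Dnah2 had 26 and 12 counts in saline and 33 and 28 after treatment, a ratio of 1.30 (0.851 to 2.00). Dnah1 had 18 and 9 counts, compared with 9 and 6, a ratio of 0.449 (0.222 to 0.875). In CPM, Dnah1 was lower in both treated libraries, and its log2 fold change of -1.11 (SE 0.689) was the lowest among the members tested, with values from -1.54 to -0.61 when 1 library was left out. Dnah12, with no count in saline and 13 and 25 after treatment, was at least 10.2-fold higher against a floor of 3 counts over the saline group, and the exact 95% interval of its ratio, which also covers the counting error of the treated libraries, began at 7.93. Dnah3 had 0 and 2 counts in saline and 17 and 22 after treatment, and its ratio of 15.8 had an interval from 4.08 to 134.7. Dnah10 had a ratio of 4.53 (1.73 to 15).

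Reads of the Dnah7 genes could not be assigned with certainty. The transcripts of Dnah7a, Dnah7b and Dnah7c are 96.4% identical in each pair, and between 12.3% and 17.1% of their windows of 100 bases are free of differences. Dnah7a had 0 counts in both saline libraries and 4 and 5 after treatment, which is at least 2.42-fold higher against the floor over the group, with an exact interval that began at 1.6. Dnah7b had 8 and 6 counts, compared with 6 and 11, and Dnah7c, which is not a member, had 2 and 8, compared with 6 and 11. Counts of these 3 genes may have been split or left out where reads matched more than 1 of them, since the counting program and its settings are not given in the sources used here.

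The smaller dynein subunits and the assembly factor differed widely from each other. Dynlrb2, a roadblock-type light chain, had 3 counts in each saline library and 83 and 42 after treatment, a ratio of 16.8 (7.52 to 46.8) and a log2 fold change of 4.06 (SE 0.706). Zmynd10, a factor for the assembly of dynein arms in the cytoplasm, had 5 and 2 counts, compared with 33 and 32, a ratio of 7.50 (3.44 to 19.4). Dnai2, an intermediate chain of the outer arm, had 52 and 31 counts in saline and 72 and 44 after treatment. Its groups overlapped, and the ratio was 1.13 (0.845 to 1.52). The other outer arm intermediate chain, Dnai1, had only 1 and 0 counts in saline but 18 and 10 after treatment, a ratio of 22.6 with a wide interval (3.74 to 925). Dnai2 had 83 counts in the saline libraries together and the outer arm heavy chains 28.

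The ruler proteins, which set the spacing along the doublets, and the nexin-dynein regulatory complex, which links neighbouring doublets, had a summed ratio of 3.05. Ccdc113 had 8 and 1 counts in saline and 28 and 25 after treatment. Drc1 had 7 and 1 counts, compared with 27 and 10. Ccdc40 had 19 and 3, compared with 25 and 53. All of these were higher in both treated libraries, with ratios of 4.76 (2.33 to 11.0), 3.74 (1.71 to 9.29) and 2.87 (1.77 to 4.83). Ccdc39, the partner of Ccdc40 in the ruler, was the only one of the 4 that overlapped, at 6, 16, 18 and 43 counts, because treated 1 and saline 2 lay close together.

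Radial spoke genes had the largest summed ratio of the role groups, 7.88, from 27 and 10 counts in saline to 200 and 149 after treatment. Rsph1, in the spoke head, had 9, 2, 63 and 60 counts in saline 1, saline 2, treated 1 and treated 2. Rsph9, also of the spoke head, had 5, 6, 62 and 46, and Lrrc23, of a spoke's head as well, had 5, 2, 60 and 28. Their ratios were 9.04 (4.88 to 18.6), 7.93 (4.26 to 16.4) and 10.2 (4.73 to 26), with log2 fold changes of 3.17 (SE 0.684), 2.98 (SE 0.577) and 3.35 (SE 0.779). With 1 library left out, the log2 fold change ranged from 2.52 (without saline 2) to 4.51 (without saline 1) for Rsph1, from 2.63 to 3.26 for Rsph9, and from 2.56 (without treated 1) to 4.06 (without saline 1) for Lrrc23. The lowest treated value exceeded the highest saline value severalfold for each of them. Rsph4a, the fourth gene, had a ratio of 3.03 (1.36 to 7.65).

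The central apparatus, the pair of single microtubules with its projections, was represented by 6 members, all of which were higher in both treated libraries. Spag6l had 1 and 0 counts in saline and 34 and 13 after treatment. Cfap54 had 6 and 11, compared with 18 and 29, and Spag16 had 4 and 0, compared with 14 and 12. The ratios were 38.0 (6.49 to 1532), 2.23 (1.26 to 4.15) and 5.25 (1.82 to 20.7). The ratio of Spag6l rested on 1 saline count, as its interval shows. Its transcript is 76.4% identical to that of the related gene Spag6, with no window of 100 bases free of differences, and Spag6 had 5, 5, 5 and 10 counts. Hydin, mutated in mice with hydrocephalus, had a ratio of 3.88 (1.45 to 13.0) and Cfap46 one of 2.26 (0.770 to 8.03), while Spag17, at 0 in both saline libraries and at 3 and 8 counts after treatment, was at least 2.96-fold higher against the floor over the group, with an exact interval that began at 2.03.

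Proteins inside the doublet microtubules and their tethers formed a group of 5, again all higher in both treated libraries. Cfap126, which positions basal bodies, had 31 and 15 counts in saline and 72 and 48 after treatment, a ratio of 2.11 (1.49 to 3.03). The tektins form filaments in the lumen of the doublets. Tekt1 had 9 and 1 counts, compared with 32 and 28, and Tekt4 had 2 and 0, compared with 32 and 14, at ratios of 4.85 (2.46 to 10.6) and 18.6 (4.86 to 158). Cfap44, of a tether of inner arm dynein, had a ratio of 17.0 (4.42 to 145), and Cfap52, a protein of the doublet lumen, one of 2.16 (1.08 to 4.6).

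The remaining members mark the ciliated cell more broadly. Tppp3, on chromosome 8, had 94 and 59 counts in saline and 734 and 499 after treatment. Its ratio was 6.51 (5.50 to 7.76) and its log2 fold change 2.74 (SE 0.356), with the narrowest counting interval of all members relative to its size. Sntn encodes sentan, a protein of the tip of the cilium, and had 2 and 0 counts, compared with 28 and 14, a ratio of 17.0 (4.42 to 145). Ak7, an adenylate kinase that supplies the axoneme with energy, had 9 and 6 counts, compared with 44 and 33, a ratio of 4.15 (2.37 to 7.77). None of these 3 overlapped between the groups.

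Levels of different genes were compared as CPM per kilobase of listed gene length. On this scale the members ranged from 0 to 2.67 in saline (median 0.0675) and from 0.0184 to 17.8 after treatment (median 0.252), as means of the 2 libraries. Tppp3 was highest in both groups. After treatment it was followed by Dynlrb2 at 6.07, Foxj1 at 2.73, Rsph1 at 2.37, Cfap126 at 1.81 and Rsph9 at 1.80. The 11 dynein heavy chains were at the low end, between 0.0184 and 0.233 after treatment. All 11 have listed lengths over 10 kb. The 13 members over 10 kb had a summed ratio of 2.64, and the 26 shorter members without Tppp3 one of 3.69. Over all 15320 genes tested the log2 fold change was lower for longer genes (Spearman's rho across genes -0.34), and rho was -0.355 over the 31 members tested. Genes of 1 library share its depth and RNA quality and are not independent replicates. The part of gene length in the ratios was not tested.

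For tests across all genes, 31 of the 40 members passed a filter on low counts and 9 did not (Mcidas, Dnah7a, Dnah7b, Dnah11, Dnai1, Drc1, Hydin, Spag17 and Cfap46). Of the 31, 19 had both saline libraries under the filter's level of 0.589 CPM and entered through their treated values alone, so their difference is partly set by the filter. The median log2 fold change over the 31 was 2.12, compared with 0.03 over all genes tested, and it was 3.42 without saline 1, which had more of these RNAs than saline 2. Of the 31, 27 were higher without overlap, compared with 28.1% of genes tested. At the same time 28.8% of genes tested were lower without overlap.

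No member passed an adjusted p of 0.05 in the edgeR quasi-likelihood test with Benjamini-Hochberg adjustment, which called 0 of 15320 genes in total (0%), and the smallest adjusted p of any gene was 0.116. At an unadjusted p under 0.05, 11% of all genes were higher and 12.2% lower. The edgeR exact test called 3.96% of all genes as higher (7.64% in either direction). DESeq2 called 3.78% of all genes as higher (8.83% in either direction), and it gave no adjusted p for 22 of the 31 members. The members were proposed from this contrast, and 19 of the 31 entered through their treated values alone. The members called at these levels are therefore not counted here.

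The other genes of motile cilia, listed by role from general knowledge of the axoneme, its assembly and multiciliation, offer a wider view of the same pathway. This list too was made with earlier results of these data known, so its counts are not independent support. Of 116 listed genes 106 were in the table, and 60 passed the filter. For 55 of the 106, both treated values lay above both saline values, for 7 below, and 44 overlapped, so that 51.9% were higher, compared with the 23.2% of genes with any count. No gene of the list passed the quasi-likelihood test. At an unadjusted p under 0.05, 16 of the 60 were higher and 0 lower, where 11% of all genes were higher. The exact test called 14 (3.96% of all genes) and DESeq2 called 3 (3.78% of all genes), all higher, and DESeq2 gave no adjusted p for 29 of the 60. Some of the 60 entered the filter through their treated values alone, as given below, so nothing is read from these shares. The median log2 fold change of the 60 was 0.74.

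This median joined genes of unlike abundance. Divided at the median total of 107.5 counts over all libraries, the 30 scarcer genes had a median log2 fold change of 1.66. The 30 more abundant genes had a median of 0.08, with 10 higher and 7 lower without overlap. Over all genes tested, 28.1% were higher and 28.8% lower without overlap. Of the scarcer genes 18, and of the more abundant genes 1, had both saline libraries under the filter's level and entered through their treated values alone, so the difference between these medians is partly set by the filter. The 4 with the highest level per kilobase belonged to the second kind. Dnal4, a dynein light chain, had 23.0, 31.5, 27.3 and 29.0 CPM in saline 1, saline 2, treated 1 and treated 2. The assembly factor Dnaaf5 had 29.9, 31.9, 24.6 and 24.2 CPM, the regulatory complex subunit Gas8 had 31.8, 34.6, 30.4 and 28.5 CPM, and the spoke protein Rsph3a had 22.0, 25.2, 17.4 and 21.0 CPM. None of these 4 was higher in both treated libraries, and Dnaaf5, Gas8 and Rsph3a were lower in both. Many abundant genes of the list are also used by cells without motile cilia, and the part of such cells in these values was not tested. Examples of the scarcer kind, chosen after their values were seen, were Ccdc153 with 11, 3, 91 and 80 counts and Fam183b with 9, 0, 54 and 61 counts.

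RFX factors, whose motif letters were searched, are themselves not restricted to ciliated cells. Rfx3 had 181 and 224 counts in saline and 189 and 157 after treatment, which is 11.3 and 15.1 CPM, compared with 10.7 and 7.66 CPM. It was thus lower in both treated libraries, with a log2 fold change of -0.52 (SE 0.304). Rfx2 had 157 and 267 counts, compared with 114 and 273, and its groups overlapped. These genes were named after their values were seen. The 42 genes of intraflagellar transport and the BBSome, whose promoters hold GTTGCC nearly as often as those of the members, summed to 957.3, 1116, 987.7 and 928.0 CPM, a ratio of 0.924, with 8 genes higher, 12 lower and 22 overlapping. Over all genes with any count, 23.2% were higher and 20.7% lower without overlap. The median log2 fold change of the transport genes was -0.11. The difference between this list and the members was not tested.

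Markers of other cells of the lung lining moved with the members. All 12 markers of club and airway secretory cells, which share the airway lining with ciliated cells, were higher in both treated libraries. Among all genes with any count, 23.2% were higher and 20.7% lower without overlap. Their sum was 1487 CPM in saline 1, 176.8 CPM in saline 2, 7294 CPM in treated 1 and 4102 CPM in treated 2, the same order of libraries as for the sum of the members. Scgb1a1, the secretoglobin of club cells, had 1085, 73.9, 5819 and 2781 CPM, and the carbonyl reductase Cbr2 had 179, 24.9, 630 and 561 CPM. The range within saline was far wider for these markers (8.41-fold) than for the members (1.80-fold).

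Alveolar markers had the same direction in most genes. Of 10 markers of alveolar type 2 cells, 8 were higher without overlap and 2 lower, with sums of 1886 and 554.9 CPM in saline and 6170 and 5205 CPM after treatment, and Sftpc had 1017, 174, 4321 and 3426 CPM. Of 10 markers of alveolar type 1 cells, 8 were higher and 0 lower, with sums of 584.3, 350.8, 1152 and 1173 CPM, and Ager had 136, 47.1, 422 and 379 CPM. The 12 endothelial markers had sums of 644.9, 481.0, 753.2 and 1124 CPM, with 9 higher and 0 lower. These counts, too, stand beside 23.2% higher and 20.7% lower without overlap among all genes with any count. The part of these cells in the members' values was not tested.

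The remaining lists differed in direction, and their counts stand beside 23.2% higher and 20.7% lower without overlap among all genes with any count. The 12 markers of 4T1 and other simple epithelium had sums of 7996, 9199, 12060 and 9147 CPM, with 5 higher, 4 lower and 3 overlapping. Spp1, which macrophages also express, gave 4706, 5593, 8870 and 6051 CPM of these sums, and without it they were 3291, 3606, 3185 and 3096 CPM. Airway basal cell markers, which simple and squamous tumor epithelium can also express, had sums of 69.7, 63.4, 50.3 and 39.1 CPM, and the defining basal keratin Krt5 was at 0 in 3 of the 4 libraries. Mesothelial markers had sums of 168.1, 291.2, 222.2 and 161.9 CPM, with 0 of 7 higher and 2 lower. The 14 leukocyte markers were higher without overlap in 6 genes, lower in 0 and overlapping in 8, with a median log2 fold change of 1.07. Their sum in treated 2 was mostly S100a8 and S100a9, which neutrophils express at high levels, and S100a9 reached 3814 CPM there, compared with 210 to 562 CPM in the other libraries. Without this pair the leukocyte sums were 247.7, 213.5, 356.5 and 439.1 CPM. The common leukocyte antigen Ptprc had 69.9, 47.9, 105 and 174 CPM. Leukocyte markers therefore had the direction of the members. Between the treated libraries, the leukocyte sum was higher in treated 2 and the members' sum higher in treated 1. The part of leukocytes in the members' values was not tested.

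**Figure D4:**
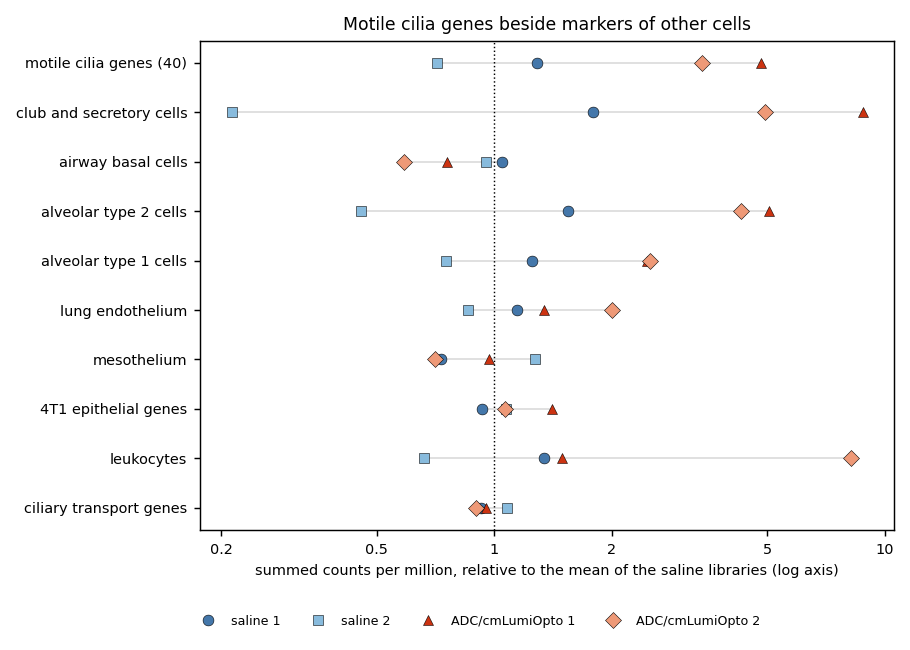
Summed TMM-scaled CPM of the members and of each comparison list (y axis, lists) in the 4 libraries, divided by the list's mean in saline (x axis, log scale). In both treated libraries the members and the club, alveolar type 2, alveolar type 1, endothelial and leukocyte markers lie to the right of saline. The lowest treated sum was 1.17 times the highest saline sum for the endothelial and 1.11 times for the leukocyte markers. Ciliary transport genes stay near 1.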

How the data were processed

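The 2 saline and 2 ADC/cmLumiOpto samples of bulk RNA sequencing from mouse lungs with 4T1-FLuc metastases were grouped by the titles in the labels. The authors deposited counts of reads per gene as whole numbers, without normalization. Per the methods, reads were aligned with HISAT2 to GRCm38, whereas the submitters' processing notes name mm39. The gene positions in the table were not those of GRCm38, so only chromosomes are given. The counting program and its use of strand are not given in the sources used here.

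The members and all comparison lists were chosen with earlier results of these data known. Genes were kept by filterByExpr (minimum count 10, minimum total 15), scaled by TMM and compared in edgeR 4.0.16 (R 4.3.3) by the quasi-likelihood test with Benjamini-Hochberg adjustment and a prior count of 0.125. SEs of log2 fold changes were derived from the F statistic. DESeq2 1.42.0, the edgeR exact test, library size alone, upper-quartile scaling, no filter, a replicate block and leaving out each library were the alternatives. The fits were tested on simulated data. Total counts were between 15263375 and 19675436. Intervals and floors cover counting error only. The methods describe biological samples from mice, and the labels tie no sample to an animal, so p-values measure the spread between these samples. Values in every library are given for the regulators, the 3 members of each other role with the highest level per kilobase, Dnah7a, Dnah7b and Spag6l, the 4 highest of the other motile cilia genes and the highest of the marker lists. Outside this rule, they are also given for the members Dnah3, Dnah12, Dnai1, Ccdc39 and Spag17 and for some further genes that are not members.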

Additional observations from a re-analysis of the deposited data

How the results depend on the processing

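The count of genes past the threshold depended on the test. The quasi-likelihood test called 0 genes with TMM, with library size alone and with upper-quartile scaling, compared with 1353 by DESeq2, 1170 by the exact test and 2259 without a filter on low counts. Leaving out 1 library gave between 0 and 218 genes, the most without saline 1. A lone library was then assumed to vary like the other group. Among the other motile cilia genes the counts were 0, 3 by DESeq2, 14 by the exact test, 15 without the filter and 0 to 2 with a library left out. The cause was not tested.

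The labels give the samples of both groups the numbers 1 and 2 but nothing that joins them, and the deviations of same-numbered samples had a correlation of 0.08 over 15320 genes. With the replicate number as a block, 607 genes and 3 other motile cilia genes were called, and the members' median log2 fold change was 2.43. This median was 2.12 in the fit reported and between 1.85 and 3.42 with 1 library left out. The median of the other motile cilia genes was 0.74, 0.83 with upper-quartile scaling, 1.15 without the filter, and 0.63 to 1.19 with a library left out. Upper-quartile scaling moved the median of all genes to 0.11. The members' summed ratio was between 3.19 and 5.74 with other scalings, without Tppp3, per kilobase of length or with 1 library left out, alternatives that were chosen after seeing the data. Many members had under 10 counts in a saline library, which limits the precision of their ratios.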

Other observations

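Several upstream factors of multiciliation outside the members had few counts, and the genes named here were chosen after their values were seen. Deup1, which builds the deuterosomes that multiply basal bodies, had 1 and 0 counts in saline and 12 and 6 after treatment. Trp73, a transcription factor of multiciliated cells, had 4 and 0 counts, compared with 9 and 10. Gmnc, which acts beside Mcidas at the start of the program, had 2 counts in saline 1 and 0 in the other libraries, and Cdc20b, whose locus is active in deuterosome-stage cells, had 1 count in treated 2 alone. Deup1 and Trp73 thus had higher counts in both treated libraries, while Gmnc and Cdc20b were at or under the floor of 3 counts. Cdhr3, a cadherin of ciliated cells, had 8, 0, 50 and 33 counts in saline 1, saline 2, treated 1 and treated 2, and Tmem212 had 14, 4, 53 and 69. Myb, which acts in multiciliated cells and also in blood cell precursors, was more abundant, at 77, 22, 119 and 49 counts, and its groups overlapped.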
